A study of Mus musculus with 1536 samples.

Results

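A set of 84 lymphatic endothelial cells (LECs) of the adult nasopharyngeal mucosa was chosen by 3 genes, with *Fndc1* above 1, *Lyve1* above 2 and *Stab2* not above 1 on the deposited natural log scale. These cells were selected on measured values and made up 9.98% of the adult cells (95% exact Clopper–Pearson interval 8.04 to 12.2). The mucosa came from C57BL/6 mice of both sexes, aged 10 to 12 weeks, and tissue of 30 mice was pooled before CD31+ PDPN+ cells were sorted one to a well. Their cDNA was sequenced by Smart-seq3, which keeps cells apart in plates. Mouse and plate are in no cell name, which makes the adult cells 1 sample. No test across cells was made, standard deviations (SD) describe the spread over these cells, and intervals of shares cover counting error only.

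Lymphatic capillaries are the blind-ended vessels that take up fluid, macromolecules and leukocytes from tissue, and their endothelium carries LYVE1, a hyaluronan receptor. They drain into precollecting and collecting vessels, in which valves direct the flow. LYVE1 is low in collecting vessels, whereas the study annotated its precollecting LECs as *Foxp2*+ *Lyve1*+. STAB2 is a scavenger receptor that also binds hyaluronan, and FNDC1 is a protein with fibronectin type III domains.

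Each value is ln(1 + reads per 10000). In the chosen cells *Fndc1* ran from 1.01 through a median of 1.96 to 3.63, and *Lyve1* from 2.07 through 3.41 to 4.62. *Stab2* was at 0 in 65 of the 84 cells and reached 0.733. These 3 genes set the choice and are given as a description. At the *Fndc1* threshold the lowest cell inside had 1.01 and the highest cell outside 0.975, with 8 cells within 0.1 of it. At the *Lyve1* threshold the nearest cells had 2.07 and 1.83, and at the *Stab2* threshold 0.733 inside and 1.01 outside. Comparison sets were cut on the same genes. They were cells high in *Lyve1* and low in the other two genes (14.6% of adult cells), 120 cells high in *Stab2* and *Lyve1*, of which 11 were also high in *Fndc1*, and 47 cells high in *Fndc1* but low in *Lyve1* and *Stab2*.

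**Figure D1:**
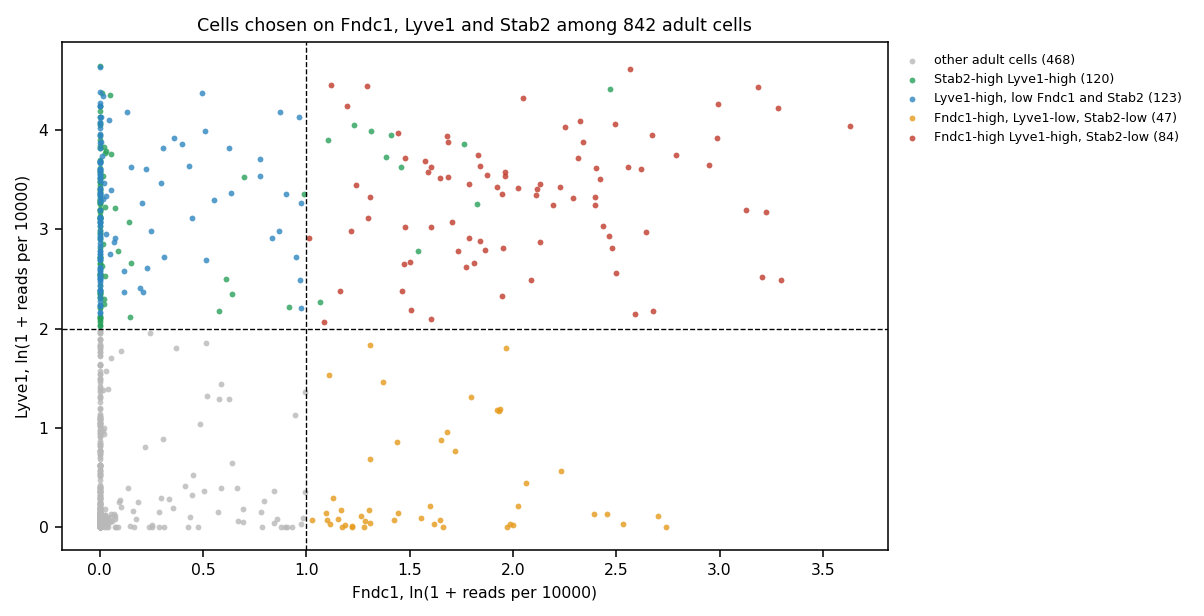
Each point is 1 adult cell, with *Fndc1* on the horizontal and *Lyve1* on the vertical axis, both as ln(1 + reads per 10000), and dashed lines at the thresholds of 1 and 2. The 84 chosen cells fill the upper right together with the 11 cells kept out by *Stab2* above 1, and cells lie on both sides of the *Fndc1* line without a gap.

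The label of lymphatic endothelium was checked against genes the choice did not use. *Prox1*, the transcription factor that sets lymphatic identity, was found in 98.8% of the chosen cells and 97.6% of the others, and *Pdpn*, used in the sort, in 92.9% and 95.5%. All 13 genes of the LEC identity list lay within 2-fold of the other cells, with a median log2 ratio of 0.17. *Reln*, a secreted glycoprotein, had a median of 2.89 against 2.14, and *Ccl21a*, the chemokine that draws CCR7+ leukocytes, a mean of 1.31 ± 0.670 (SD, n = 84 cells) against 0.813 ± 0.740. *Ccl21a* was alike in the *Lyve1*-high cells low in *Fndc1* and *Stab2*. Its means there were 1.08, 1.29 and 1.41 with *Fndc1* at 0, above 0 to 0.5 and above 0.5 to 1. In the chosen cells they were 1.36, 1.24 and 1.34 with *Fndc1* above 1 to 1.5, above 1.5 to 2 and above 2. *Ccl21a* has near-identical gene copies that can share reads. Of 5 tested genes listed for *Ptx3*+ capillaries, 2 had a ratio above 0 and 3 below, with a median of -0.18. The study marked its *Ptx3*-negative capillary LECs by *Fndc1* and *Ptn*, of which *Ptn* is outside the rule. Over *Fndc1* bins above 1 to 1.5, above 1.5 to 2 and above 2, mean *Ptn* was 0.398, 0.458 and 0.732 in the chosen cells. In *Fndc1*-high *Lyve1*-low cells it was 0.778, 0.322 and 1.39, so *Ptn* did not set the chosen cells apart from these. *Ptn* was lower in the *Lyve1*-high cells low in *Fndc1* and *Stab2*. Its means there were 0.0823, 0.194 and 0.211 with *Fndc1* at 0, above 0 to 0.5 and above 0.5 to 1. The word capillary thus rests on *Lyve1* and *Fndc1*, which the rule used. Genes listed for precollecting vessels were mixed, since of 6 tested 3 had a ratio above 0 and 3 below, with a median of -0.04. *Apoe* alone was past 2-fold (-2.57), and *Foxp2* was found in 48.8% against 64.2%. *Prelp* (2.57 ± 0.651 against 1.80 ± 0.946) and *Cd9* (2.50 ± 0.438 against 2.11 ± 0.666) had higher means.

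Several defining markers of fibroblasts, immune and mural cells were at 0, while other genes of the same lists had reads. Of 10 fibroblast genes, *Pdgfra*, *Col1a2*, *Dpt*, *Col6a3* and *Pi16* had no read in any chosen cell, and no chosen cell had 3 or more of the genes. Reads were present for 5 of the 10, most often for *Col3a1*, found in 10.7% of the chosen cells. The summed fibroblast level ran from 0 to 2.999 reads per 10000 in the chosen cells and from 0 to 179.5 in the others. *Ptprc* and *Cd3e* of the 8 immune genes were at 0 in the chosen cells and also in all other adult cells. Of the 8, 4 had reads in the chosen cells, with *Cd68* in 13.1% against 16% of the others. *Myh11* of the 7 mural genes was at 0, but 4 of the 7 had reads, with *Acta2* in 5.95% against 2.11%. Among the chosen cells, 1 reached a summed mural level of 16.8. Genes listed for blood endothelium were more widely found than these. *Emcn*, an endothelial sialomucin, was found in 97.6% of the chosen cells and 93.8% of the others, 38 chosen cells had reads in 2 or more of the 6 genes, and the summed level ran from 0 through a median of 6.03 to 22.9 reads per 10000 against a median of 7.38 and a top of 43 in the others. *Ly6c1* and *Esm1* of that list were at 0 in the chosen cells. Median depth was 408434 reads and 4328 genes per chosen cell against 347201 reads and 4160.5 genes in the others. The mean of 26 immediate-early genes, which react to tissue dissociation, was 1.35 ± 0.656 against 1.52 ± 0.653. *Xist* without a Y-linked gene was read in 29.8% of the chosen cells (95% interval 20.3 to 40.7) and in 18.9% of the others (16.1 to 21.8). The part of these differences in the results was not tested.

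Against all other adult cells the chosen cells had more *Tppp3*, *Ucp2*, *Cyp4b1* and *Tnxb* and less *Apoe* and *Sparc*. The measure was the log2 ratio of mean reads per 10000 after adding 1, over the 5829 genes found in at least 30% of either side, with the rule genes left out. Of these, 17 genes (0.292%) were at least 2-fold higher and 21 (0.36%) at least 2-fold lower, and the median over all was -0.0038. The cells were chosen on the same libraries, so these counts describe them and nothing is read from them as a test.

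*Tppp3*, which promotes the polymerisation of tubulin, had the highest ratio. In the chosen cells *Tppp3* ran from 0 through a median of 2.15 to 4.83, and in the other cells from 0 through a median of 0 to 4.59. It was found in 81% of the chosen cells (95% interval 70.9 to 88.7) and in 38% of the others (34.5 to 41.6). The groups overlapped at the top, but the median other cell had no read of it. The log2 ratio of *Tppp3* was 2.95, a 7.71-fold difference. With each cell thinned to 20000 reads, *Tppp3* was found in 73.4% of the chosen cells and 20.8% of the others.

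*Ucp2*, a carrier of the inner mitochondrial membrane, came next. It had a median of 2.09 (lowest 0, highest 4.14) in the chosen cells and 0.0156 (highest 3.26) in the others, with a log2 ratio of 2.17. *Cyp4b1*, a cytochrome P450 that oxidises fatty acids and foreign compounds, had a median of 0.886 (highest 3.62) against 0 (highest 3.69) and a log2 ratio of 2.07. *Cyp4b1* was found in 65.5% (54.3 to 75.5) against 23.6% (20.6 to 26.8). Both genes were missing from some chosen cells and overlapped with the others. Of 9 tested genes of the oxidation and detoxification list *Cyp4b1* alone was past 2-fold, with *Gstm1* at 0.20, *Ephx1* at 0.05 and *Aldh2* at 0.47. Of 16 tested genes of redox and mitochondrial carriers *Ucp2* alone was past 2-fold, and the adenine nucleotide carriers *Slc25a4* and *Slc25a5* had log2 ratios of -0.02 and -0.03.

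Among genes of the extracellular matrix, *Tnxb*, which encodes the glycoprotein tenascin-X, ran from 0 through a median of 1.46 to 3.32 in the chosen cells. In the others *Tnxb* had a median of 0, the top cell was at 2.79, and the log2 ratio was 1.91. *Tgfbi*, a matrix protein induced by TGF-β, had 1.78 ± 1.03 against 0.631 ± 0.938 (1.42). *Ltbp4*, which binds latent TGF-β in elastic fibres, was found in all 84 chosen cells at 3.42 ± 0.538 against 2.64 ± 0.743 (0.98). In the other direction *Sparc* (-2.37), *Thbs1* (-1.20) and *Bgn* (-1.06) were lower. Of the 28 tested genes of the matrix list, which does not hold *Tgfbi*, 1 was past 2-fold higher (*Tnxb*), 3 were past 2-fold lower and the median was -0.20. Over all 5829 tested genes the shares were 0.292% higher and 0.36% lower. Against the *Lyve1*-high cells low in *Fndc1* and *Stab2* the list had 14 genes above and 14 below 0, with a median of 0.0023. *Tnxb* (higher) and *Sparc* (lower) alone were past 2-fold there.

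Several leading genes act on the cytoskeleton, a grouping made after the values were seen. *Stmn2*, a tubulin-binding stathmin, had 1.28 ± 0.958 against 0.412 ± 0.709 (log2 ratio 1.35). *Mtus1*, a microtubule-associated protein, had 0.966 ± 0.672 against 0.293 ± 0.472 (1.09). *Syne1*, a nesprin that joins the nucleus to the cytoskeleton, had 1.18 ± 0.788 against 0.460 ± 0.606 (1.12). The actin-binding transgelin gene *Tagln2* was found in 97.6% of the chosen cells, with a log2 ratio of 1.10, and the LIM domain protein gene *Crip1* had 1.16.

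Receptors and binding proteins followed. *Ackr3*, an atypical chemokine receptor that scavenges CXCL12, had a median of 2.23 (highest 4.41) in the chosen cells and 0.0540 (highest 4.05) in the others, a log2 ratio of 1.44. *Ackr2*, which degrades inflammatory chemokines, had 1.27 ± 0.858 against 0.669 ± 0.813 (0.79). The adhesion receptor gene *Adgrg3* had 1.87 ± 0.926 against 0.873 ± 0.861 (1.35). *Piezo2*, a mechanosensitive ion channel, was found in 71.4% against 30.2%, with a log2 ratio of 0.94. *Igfbp3*, a binding protein of insulin-like growth factors, was found in 37 of 84 chosen cells (44%, 33.2 to 55.3) and in 4.22% of the others (2.91 to 5.91), a log2 ratio of 1.24. Its relative *Igfbp7* was past 2-fold lower (-1.07), while *Igfbp4* (-0.24) and *Igfbp5* (0.36) were not.

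Both subunits of soluble guanylate cyclase, the receptor of nitric oxide, were among the 25 leading genes. *Gucy1a3*, the α1 subunit, was found in 63.1% of the chosen cells and 17.9% of the others (log2 ratio 1.13). *Gucy1b3*, the β1 subunit, was found in 69% and 29.2%, just short of 2-fold. The genes lie on the minus strand of mouse chromosome 3 in GRCm38, *Gucy1b3* at chr3:82032006-82074689 and *Gucy1a3* at chr3:82092427-82145789, with 17737 bases between them. Their RefSeq promoter windows (GRCm38.p6, minus strand, from 250 bases before to 50 after a start site) are shown because the 2 subunits form 1 enzyme and were higher together. The window of *Gucy1a3* is chr3:82145601-82145900 and that of *Gucy1b3* is chr3:82074662-82074961. Capitals mark the letters TGGGAA, the core of RBPJ sites.
Gucy1a3: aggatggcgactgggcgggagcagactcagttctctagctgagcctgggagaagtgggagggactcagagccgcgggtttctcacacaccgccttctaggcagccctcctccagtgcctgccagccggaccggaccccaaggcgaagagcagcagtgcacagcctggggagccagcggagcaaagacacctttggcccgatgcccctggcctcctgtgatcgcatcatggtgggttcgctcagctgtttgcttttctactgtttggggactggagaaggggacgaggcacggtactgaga
Gucy1b3: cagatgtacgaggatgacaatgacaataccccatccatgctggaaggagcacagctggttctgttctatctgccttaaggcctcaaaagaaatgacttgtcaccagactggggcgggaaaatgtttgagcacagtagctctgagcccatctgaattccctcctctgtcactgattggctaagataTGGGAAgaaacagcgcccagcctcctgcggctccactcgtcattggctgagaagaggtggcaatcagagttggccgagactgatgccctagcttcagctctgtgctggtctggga
The letters occur in the *Gucy1b3* window and not in the *Gucy1a3* window. On either strand they were in 5 of the 20 leading genes with a window and in 25.5% of 27025 windows. Other short motifs were searched on both strands in the same way. AGGTCA of nuclear receptors was in 3 of the 20 windows and 16% of all, TGTTTAC of forkhead factors in 0 and 3.55%, ACAAAG of SOX factors in 2 and 18.7%, and TGACTCA of AP-1 in 2 and 5.17%.

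Further leading genes were *Pcp4l1*, a small IQ motif protein (log2 ratio 1.45, found in 88.1% against 41.3%), *Serpina3n*, a serine protease inhibitor (1.23), *Megf6*, a protein with EGF repeats (1.20), *Slco2b1*, an organic anion transporter (0.95), *Tspan18*, a tetraspanin (0.92), *Enpp3*, an ectonucleotide pyrophosphatase (0.87), and *Clstn1*, a calsyntenin (0.85). *Serpina3n* has close copies that can share reads. Exons of *Ucp2* overlap *Dnajb13* on the opposite strand and those of *Tnxb* overlap *Cyp21a2-ps*, and such reads cannot be told apart, since the strand setting of counting is not given in the sources used here.

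**Figure D2:**
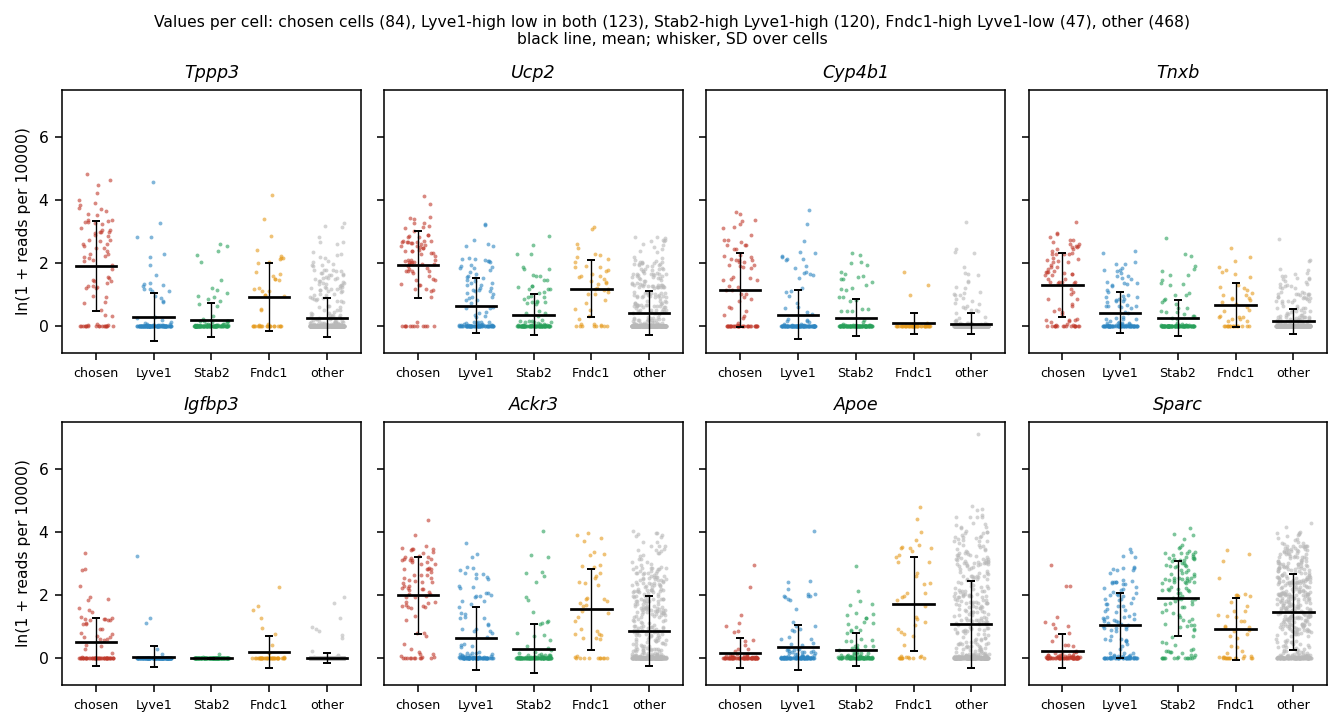
Each point is 1 cell, with ln(1 + reads per 10000) on the vertical axis, the black line at the mean and the whisker at 1 SD over cells, for the 84 chosen cells, the *Lyve1*-high cells low in both other genes, 120 *Stab2*-high *Lyve1*-high cells, 47 *Fndc1*-high *Lyve1*-low cells and the remaining cells. *Tppp3*, *Ucp2*, *Cyp4b1*, *Tnxb* and *Igfbp3* have their highest means in the chosen cells, while single cells of the sets overlap.

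Of the genes lower in the chosen cells, *Apoe*, a lipid carrier, was first. *Apoe* was found in 44% of the chosen cells (33.2 to 55.3), where its median was 0 and its top value 2.96, and in 67.8% of the others, where its median was 0.0733 and its top value 7.13. The log2 ratio of *Apoe* was -2.57, a 5.93-fold lower mean. From mean natural log values, in which single high cells weigh less, it was -1.02, and *Sparc* (-1.75) was then the lowest of the named genes. *Apoe* was also low in the *Lyve1*-high cells low in *Fndc1* and *Stab2* (median 0.0249, log2 ratio of the chosen cells over them -0.63). *Sparc*, a matricellular protein, had a median of 0.0330 against 1.37 and a log2 ratio of -2.37. Both were low but not absent, and with cells thinned to 20000 reads *Sparc* was found in 20.3% of the chosen cells and 69.4% of the others.

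*Gdf15*, a stress-responsive member of the TGF-β family, had a log2 ratio of -1.89, and *Clu*, an extracellular chaperone, -1.80. *Procr*, the receptor of protein C, was found in 33.3% against 75.9% (-1.32), and *Plvap*, which forms the diaphragms of fenestrae, in 38.1% against 82.2% (-1.23). *Plat*, the tissue plasminogen activator, was found in like shares, 61.9% and 65.8%, but at a lower mean (-1.32). Neither *Plat* nor *Procr* was past 2-fold lower against the *Stab2*-high *Lyve1*-high cells or the *Lyve1*-high cells low in *Fndc1* and *Stab2*. *Aqp1*, a water channel, was wide in the chosen cells, with quartiles of 0.106 and 3.06 about a median of 0.774, so that cells with little and cells with much of it were present. *Trp53i11* (-1.24) and *Tspan18* (0.92) differed in opposite directions although they abut on chromosome 2 of GRCm38, at chr2:93187548-93201759 on the plus and chr2:93201760-93334505 on the minus strand.

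Over all tested genes 51.2% had a ratio below 0 against all other cells. Of 10 tested MHC genes 8 did, with a median of -0.28. Against the *Lyve1*-high cells low in *Fndc1* and *Stab2* the list had 5 above and 5 below 0 and none past 2-fold. The median of the list was -0.17 there, beside -0.0021 over all tested genes. *H2-K1* had 2.22 ± 0.931 against 2.95 ± 0.775 (-0.91), *B2m* 2.94 ± 0.830 against 3.33 ± 0.725 (-0.47), and *H2-Q7* alone was past 2-fold (-1.08). MHC genes are close copies and can share reads. Of 24 tested immediate-early genes 20 had a ratio below 0 against all other cells, with a median of -0.21, and against the same *Lyve1*-high cells 12 were above and 12 below 0, with a median of -0.03. *Ier3* (-1.16) and *Nr4a1* (-1.09) were past 2-fold lower than in all other cells, and *Fos* had 0.01. No gene was past 2-fold among 10 tested interferon genes, 16 of junctions, 14 of glycolysis, 9 integrins and 6 of valves. Over all lists together 20 genes were past 2-fold, including the 5 markers that came with the label. Of all 5829 tested genes, 0.292% were past 2-fold higher and 0.36% past 2-fold lower. Some genes are in more than 1 list, and the tested genes of all lists were not counted together. The 20 genes therefore have no share to set beside these. The lists were chosen with earlier results of these data known, so their count is a description only.

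**Figure D3:**
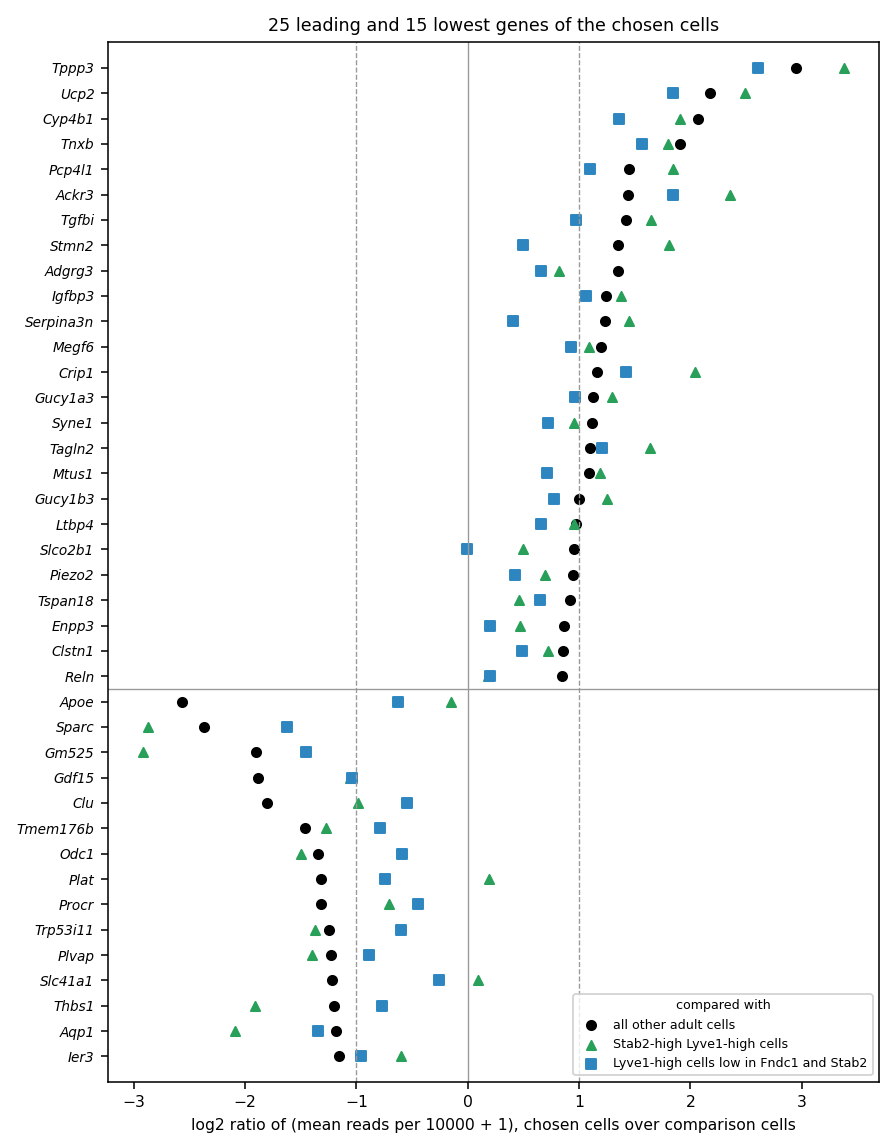
Log2 ratios of mean reads per 10000 plus 1 in the chosen cells over all other adult cells (circles), *Stab2*-high *Lyve1*-high cells (triangles) and *Lyve1*-high cells low in *Fndc1* and *Stab2* (squares), for the 25 leading and the 15 lowest genes, with dashed lines at 2-fold. *Tppp3* is to the right in all 3 comparisons, *Apoe* is at -2.57 against all other cells but -0.15 against the *Stab2*-high cells, and *Slco2b1* is at -0.01 against the *Lyve1*-high cells.

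Against the 120 *Stab2*-high *Lyve1*-high cells, 34 of 6177 tested genes (0.55%) were at least 2-fold higher in the chosen cells and 31 (0.502%) at least 2-fold lower. *Tppp3* (log2 ratio 3.38), *Igfbp5* (2.83), *Ucp2* (2.49), *Ackr3* (2.36) and *Crip1* (2.04) led. *Igfbp5*, which binds insulin-like growth factors, had 1.49 ± 1.42 in the chosen cells against 0.221 in the *Stab2*-high cells. *Serpine2*, a protease inhibitor (1.34), *Ptn*, a heparin-binding growth factor (1.32), and *Hey1*, a Notch target (1.17), were also past 2-fold. The lowest were *Gm525* (-2.92), *Sparc* (-2.87), *Aqp1* (-2.09), the semaphorin gene *Sema7a* (-1.92) and *Thbs1* (-1.91). *Gm525* had a median of 0 in the chosen cells and 1.94 in the *Stab2*-high cells, and *Aqp1* 0.774 and 3.99. Of 7 genes listed for *Ptx3*+ capillaries, 6 had a ratio below 0, beside 54.5% of all tested genes, with *Aqp1* alone past 2-fold, *Itih5* at -0.99, *Kcnj8* at -0.89 and *Stab1* at -0.77, and *Piezo2* was above 0 (0.69).

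The closest set was the *Lyve1*-high cells low in *Fndc1* and *Stab2*. Here 11 of 5812 tested genes (0.189%) were at least 2-fold higher in the chosen cells and 5 (0.086%) at least 2-fold lower. *Tppp3* (2.61), *Ackr3* (1.84), *Ucp2* (1.84), *Tnxb* (1.57) and *Crip1* (1.42) led, and *Cyp4b1* (1.36), *Igfbp5* (1.28), *Tagln2* (1.21), *Pcp4l1* (1.10) and *Igfbp3* (1.06) were past 2-fold too. The 5 lower genes were *Sparc* (-1.62), *Gm525* (-1.46), *Aqp1* (-1.34), *Igfbp7* (-1.16) and *Gdf15* (-1.04). *Slco2b1* (-0.01), *Reln* (0.20) and *Enpp3* (0.20), among the 25 leading genes against all other cells, had ratios near 0 here.

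To set *Fndc1* apart from *Lyve1*, the 47 *Fndc1*-high cells with low *Lyve1* were placed beside the chosen cells. *Pcp4l1* was close in both (median 1.54 against 1.17, log2 ratio 0.36), as were *Ackr3* (0.33), *Tagln2* (0.36) and *Crip1* (0.37). *Cyp4b1* was not, with 1.14 ± 1.17 against 0.0901 ± 0.340 (2.40), and neither were *Enpp3* (1.61) and *Piezo2* (1.29). Leading genes were also compared over *Fndc1* bins above 1 to 1.5, above 1.5 to 2 and above 2. Mean *Tppp3* was 1.17, 1.64 and 2.37 in the chosen cells against 0.652, 0.970 and 1.66 in the *Lyve1*-low cells. *Ucp2* had 1.27, 1.73 and 2.37 against 1.08, 1.16 and 1.58. *Tnxb* had 1.04, 0.886 and 1.71 against 0.546, 0.988 and 0.443. *Apoe* had a median of 0 in the chosen cells and 1.67 in the *Lyve1*-low cells (-3.38).

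Cells with *Stab2* not above 1 were then ordered by *Fndc1* on either side of the *Lyve1* threshold. Among *Lyve1*-high cells the 6 bins, from *Fndc1* at 0 to above 2, held 76, 31, 16, 15, 28 and 41 cells. The mean of *Tppp3* over them was 0.182, 0.463, 0.513, 1.17, 1.64 and 2.37. *Ucp2* had 0.630, 0.470, 1.08, 1.27, 1.73 and 2.37. *Cyp4b1* had 0.308, 0.360, 0.689, 0.465, 0.814 and 1.61. *Tppp3* was higher in each bin than in the one before, while *Ucp2* dipped in the second bin and *Cyp4b1* in the fourth. Among *Lyve1*-low cells *Tppp3* was 0.230 with no *Fndc1* and 1.66 above 2 (8 cells), whereas *Cyp4b1* was 0.0688 and 0. *Tppp3* was thus higher with high *Fndc1* on both sides. In the bins above 1 *Tppp3* was lower on the *Lyve1*-low side than on the *Lyve1*-high side. *Cyp4b1* was low wherever *Lyve1* was low. The *Lyve1*-high bins above 1 are the chosen cells themselves, and bins of 16, 15 and 8 cells are thin.

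**Figure D4:**
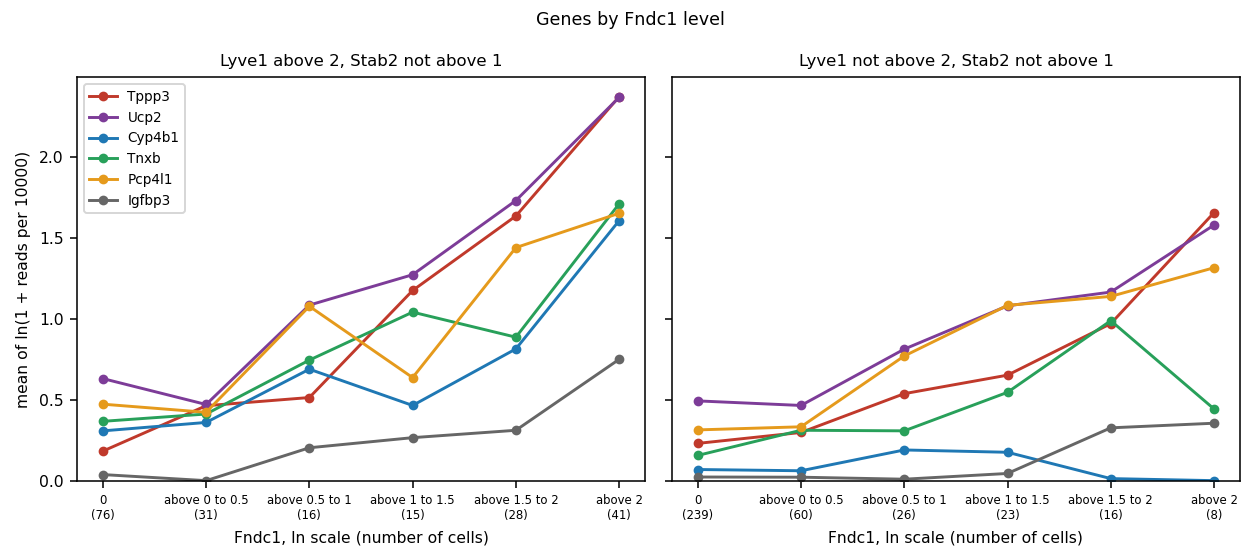
Mean ln(1 + reads per 10000) of 6 genes in 6 bins of *Fndc1*, for cells with *Lyve1* above 2 (left) and not above 2 (right), both with *Stab2* not above 1 and with numbers of cells in brackets. *Tppp3* is at 2.37 in the last bin on the left and 1.66 on the right, and *Cyp4b1* at 1.61 and 0.

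Across all adult cells, the genes most like *Fndc1* by Spearman's rank correlation, over 9654 genes found in at least 10% of cells, were *Pcp4l1* (0.449), *Tnxb* (0.422), *Ucp2* (0.406) and *Tppp3* (0.372). Next came *Ece1*, an endothelin-converting enzyme (0.342), *Cavin2* of caveolae (0.336), the intermediate filament gene *Vim* (0.332), *Fgl2* (0.327), *Tagln2* (0.323) and *Gucy1a3* (0.313). The chosen cells, high in *Fndc1* by the rule, are among the cells correlated, so genes high in them tend to rank high here. The cells also share a pool and differ in depth, so these values are a description with no p.

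The chosen cells were not uniform. Of the 25 leading genes, a chosen cell had from 6 to 25 above 1, with a median of 16, against a median of 6 in all other cells and 9 in the *Lyve1*-high cells low in both other genes. Of the 5 label genes outside the rule (*Cyp4b1*, *Ucp2*, *Tnxb*, *Igfbp3* and *Pcp4l1*) the median number above 1 was 3 against 0, and 7 chosen cells had none. Over the 84 cells, Spearman correlations among 12 leading genes ran from -0.16 to 0.58 with a median of 0.20 for 66 pairs, and *Tppp3* with *Igfbp3* (0.58) and with *Cyp4b1* (0.57) were at the upper end.

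The cells were then placed without the genes that chose them. With *Fndc1*, *Lyve1* and *Stab2* left out of 2000 variable genes and 15 principal components, 48.8% of the 20 nearest neighbours of a chosen cell were chosen cells, against 9.87% by share. The range over cells was 0 to 100%, 37 of the 84 had more than 50%, and 3 had none. For *Lyve1*-high cells low in both other genes 10.7% of neighbours were chosen cells, for *Fndc1*-high *Lyve1*-low cells 8.40% and for *Stab2*-high *Lyve1*-high cells 3.33%.

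Clusters made without the rule genes, at a resolution of 0.5, held the chosen cells in 3 places. Cluster 4, led by *Tppp3*, *Cyp4b1* and *Ucp2*, had 47 cells, of which 41 were chosen cells. Cluster 2, led by *Tgfbi* and *Slco2b1*, held 28 of them (12.7% of that cluster), and cluster 1, led by *Igfbp5*, held 15 (4.81%). Clusters 3 and 5, led by *Aqp1* with *Gm525* and by *Slc41a1* with *Gdf15*, held none. Of the 6 other cells in cluster 4, 5 had *Fndc1* at or under 1 and 1 had *Lyve1* at or under 2. At a resolution of 0.8 the chosen cells were spread more widely, with 43 in a cluster of 51 cells led by *Tppp3*. Others were in clusters led by *Tgfbi* (18), *Igfbp5* (14), *Isg15* (6) and *Gm16486* (3).

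Chosen cells inside and outside cluster 4 differed in genes that also formed the cluster, so the values are a description. *Tppp3* had 2.88 ± 1.06 in cluster 4 (n = 41), 0.949 ± 1.02 in cluster 2 (n = 28) and 1.08 ± 1.32 in cluster 1 (n = 15). *Cyp4b1* was found in 92.7%, 46.4% and 26.7% of the chosen cells of clusters 4, 2 and 1, and *Igfbp3* in 73.2%, 14.3% and 20%. *Igfbp7* ran the other way, found in 34.1%, 89.3% and 73.3%, and *Ltbp4* was alike in all (3.45, 3.41 and 3.33). *Fndc1*, left out of the clustering, had 2.32 ± 0.593, 1.81 ± 0.482 and 1.89 ± 0.581. Median reads per cell were 532685, 285088 and 293396, and their part in these differences was not tested. Without the 41 cells, a choice made after seeing the data, 6 of the 17 genes were still at least 2-fold higher than in all other cells. These were *Ucp2* (1.43), *Tppp3* (1.37), *Stmn2* (1.25), *Tgfbi* (1.24), *Serpina3n* (1.07) and *Adgrg3* (1.03), while *Tnxb* had 0.93, *Cyp4b1* 0.59 and *Igfbp3* 0.12.

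**Figure D5:**
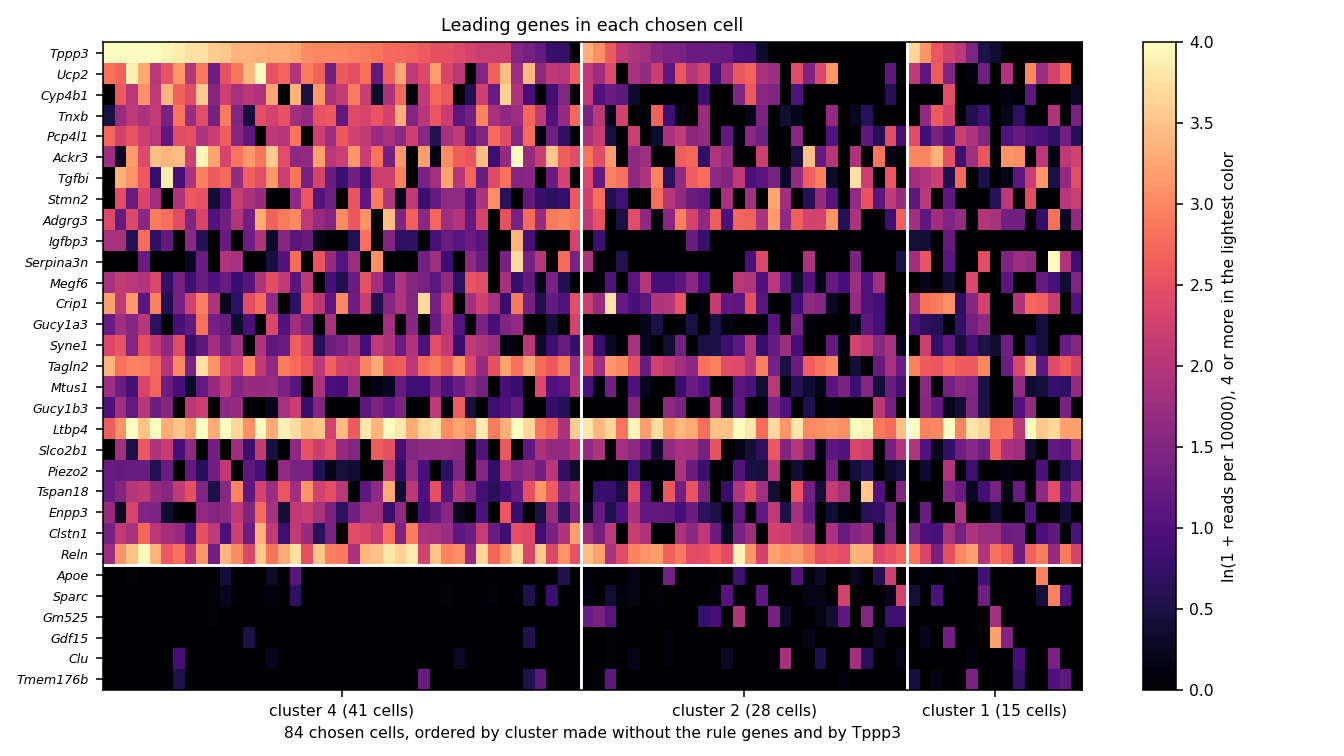
Each column is 1 of the 84 chosen cells, ordered by cluster (41 cells of cluster 4, 28 of cluster 2, 15 of cluster 1) and by *Tppp3*, and each row is a gene, the 25 leading genes above and 6 of the lowest below the white line, with color for ln(1 + reads per 10000). *Igfbp3*, found in 73.2% of the chosen cells of cluster 4, is bright mainly there, and *Ltbp4* is bright throughout.

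The leading genes were also followed by sex signal. Among cells with *Xist* and no Y-linked gene (25 chosen cells) the log2 ratios of *Tppp3*, *Ucp2* and *Cyp4b1* were 2.73, 2.42 and 1.82, and among cells with a Y-linked gene and no *Xist* (39 chosen cells) 3.16, 2.02 and 2.10. *Serpina3n* had 0.37 and 1.59, *Igfbp3* 0.64 and 1.39, and *Sparc* -3.34 and -1.76. These differences were not tested, since cells cannot be assigned to mice.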

How the data were processed

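Smart-seq3 libraries of single sorted LECs were used. Per the submitters' processing notes and the methods, STAR mapped the reads to mm10, featureCounts of Subread counted them by gene, and in Seurat 4.1.0 the authors kept cells of at least 2000 genes and at most 10% mitochondrial reads. The authors deposited 1 table of 842 cells, read here as the natural log of 1 plus reads per 10000, because each cell then sums to 10000, although the methods write log2. Whole reads were recovered from 100% of values above 0 (within 0.01 reads), with 7433 to 3524358 reads per cell (median 350746). Strand, annotation and multi-mapping are not given in the sources used here. No doublet caller was run.

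The 84 chosen cells were compared with 758 others, of which 123 were high in *Lyve1* alone. The members and lists were chosen with earlier results of these data known. Means of reads per 10000 plus a pseudocount of 1 gave log2 ratios, for genes found in at least 30% of either set. Named genes were the label's markers, the 25 highest and 15 lowest, list members past 2-fold and up to 4 more per list, the 5 highest and 5 lowest against each set, and the 10 most like *Fndc1*, with a few others chosen after their values were seen. Thinning to 20000 reads kept 79 chosen and 712 other cells. Cells were clustered with Seurat 5.3.0 in R 4.3.3, and 26 immediate-early genes stood in for the study's dissociation genes. Coordinates came from GENCODE M21 (GRCm38, 96.1% of symbols matched), promoter windows from RefSeq for 20 of the 25 leading genes (*Gucy1a3* and *Gucy1b3* are now *Gucy1a1* and *Gucy1b1*). Python 3.11.15, NumPy 2.4.6, pandas 2.3.3, SciPy 1.17.1, scikit-learn 1.9.0 and matplotlib 3.10.9 were used, and the steps were tested on simulated data. Alternatives changed the thresholds, pseudocount, filter, scale, depth, sex signal, fibroblast reads and neighbour settings.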

Additional observations from a re-analysis of the deposited data

How the results depend on the processing

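Shares of tested genes past 2-fold depended on the pseudocount and the scale. With a pseudocount of 0.1, 1.20% of genes were higher and 1.49% lower than in all other cells, 2.44% and 2.99% than in *Stab2*-high *Lyve1*-high cells, and 1.03% and 1.07% than in *Lyve1*-high cells low in both other genes, with 37 genes of the lists past 2-fold in place of 20. All 17 higher and 21 lower genes against all other cells were among these 70 and 87. From mean natural log values, 0.137%, 0.324% and 0.0516% were lower in the same order. That setting kept 13 of the 17 higher and 6 of the 21 lower genes against all other cells, and cells with *Xist* alone kept 12 and 16. With *Lyve1* above 3, 0.439% were higher than in all other cells (26 genes, 16 of them shared with the 17), and without the chosen cells of the cluster led by *Tppp3*, a setting added after seeing the data, 0.0996% (6 genes). Against *Lyve1*-high cells low in both, the share of lower genes was 0.201% in cells with *Xist* alone, 0.164% with a Y-linked gene alone and 0.128% in the more complex cells (8 genes in place of 5). The other counts under the alternatives run stayed within 1.5 times, which does not say that they held the same genes. None of the 40 named ratios followed through the alternatives that was past 2-fold changed sign. Chosen cells were 45.8% to 49.5% of neighbours under the other neighbour settings.

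The adult cells are 1 pooled sample, so there was no replicate to leave out. No paired analysis was possible because the comparisons come from no test. A gene missing in a shallow cell cannot be told apart from one that was not read, and mouse and plate cannot be told apart.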
